A study of Mus musculus with 14 samples.

Results

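Fatty acid oxidation and ketone body formation are served by a set of genes under the nuclear receptor PPAR-alpha, and 34 of them were followed through tumour-free liver of mice without Mdr2, mice without Mdr2 and IL6, and wild type. The 34 were taken as a named list, each read from its probe of highest mean among probes assigned to a single gene, out of 19938 genes tested on the array. The 6 Mdr2-KO/IL6-KO arrays, 5 Mdr2-KO arrays and 3 wild-type arrays all came from female mice aged 14 months. The wild type was C57BL/6, and the labels give no strain for the knockouts. Both knockout genotypes lack Mdr2, and Mdr2-KO/IL6-KO lacks IL6 in addition. The labels do not say that arrays of a genotype came from separate mice, so p-values measure the spread between arrays. Values are on the authors' log2 scale and means are given with their SD (n = 6, 5 and 3 arrays).

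Abcb4, the gene name of Mdr2, lay between 8.77 and 9.24 in Mdr2-KO/IL6-KO, between 8.73 and 9.23 in Mdr2-KO and between 10.33 and 10.39 in wild type. Il6 lay between 3.13 and 4.00 in Mdr2-KO/IL6-KO, between 2.91 and 3.25 in Mdr2-KO and between 3.13 and 3.32 in wild type. All of these Il6 values are below 5.49, used here as background since 95% of 1015 olfactory receptor genes averaged less, so the array does not check the loss of Il6. The tissue label was checked on 9 hepatocyte markers. Their mean level was 12.21 to 12.50 in Mdr2-KO/IL6-KO, 12.34 to 12.50 in Mdr2-KO and 12.26 to 12.37 in wild type, and 0 of the 9 passed the test in any comparison. In whole tissue, fewer cells of a type and less RNA per cell cannot be told apart.

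PPAR-alpha binds fatty acids and switches on genes for their uptake, activation and breakdown, most of all in the fasting liver. Long-chain fatty acids enter mitochondria through the carnitine shuttle and are shortened there in repeated cycles, with auxiliary enzymes for unsaturated chains. Very long chains are shortened first in peroxisomes, acyl-CoA thioesterases release free fatty acids from CoA, and the acetyl-CoA made in mitochondria feeds ketone body synthesis.

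Thioesterase genes had some of the largest differences among the 34, and 4 of them lie in a row on chromosome 12 in the order Acot2, Acot1, Acot4, Acot3. Their promoters are shown, with that of Fabp1 for comparison, since genes of this row account for several of the falls. PPAR-alpha with its partner RXR binds repeats of AGGTCA with a single base between them, and capitals mark AGGTCA or its reverse complement and, in Fabp1, a looser form of the repeat. Each sequence runs from 250 bases before to 50 after the gene's start on the plus strand, from RefSeq (GRCm38.p6), at chr12:83987611-83987910, chr12:84009252-84009551, chr12:84038129-84038428, chr12:84051894-84052193 and chr6:71199629-71199928.
Acot2: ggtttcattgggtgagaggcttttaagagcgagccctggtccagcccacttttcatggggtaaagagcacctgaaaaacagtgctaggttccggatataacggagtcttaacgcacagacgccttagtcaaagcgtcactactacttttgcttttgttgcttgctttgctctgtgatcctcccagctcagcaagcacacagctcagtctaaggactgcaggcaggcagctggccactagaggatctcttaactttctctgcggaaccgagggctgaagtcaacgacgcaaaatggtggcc
Acot1: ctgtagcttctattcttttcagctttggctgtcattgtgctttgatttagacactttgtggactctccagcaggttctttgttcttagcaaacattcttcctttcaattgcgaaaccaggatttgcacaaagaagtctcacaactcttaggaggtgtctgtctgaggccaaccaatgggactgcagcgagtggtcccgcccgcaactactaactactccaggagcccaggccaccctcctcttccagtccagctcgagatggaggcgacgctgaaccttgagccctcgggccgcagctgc
Acot4: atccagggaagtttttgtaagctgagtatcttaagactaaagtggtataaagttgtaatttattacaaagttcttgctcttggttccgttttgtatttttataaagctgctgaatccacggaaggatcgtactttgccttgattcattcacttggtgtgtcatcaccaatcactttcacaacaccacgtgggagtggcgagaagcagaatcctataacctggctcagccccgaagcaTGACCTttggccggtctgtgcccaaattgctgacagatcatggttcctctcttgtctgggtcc
Acot3: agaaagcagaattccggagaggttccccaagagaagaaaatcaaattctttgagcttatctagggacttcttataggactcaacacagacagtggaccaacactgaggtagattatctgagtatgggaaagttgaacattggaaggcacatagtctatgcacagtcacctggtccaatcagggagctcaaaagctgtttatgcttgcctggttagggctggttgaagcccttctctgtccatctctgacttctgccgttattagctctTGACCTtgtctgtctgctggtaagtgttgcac
Fabp1: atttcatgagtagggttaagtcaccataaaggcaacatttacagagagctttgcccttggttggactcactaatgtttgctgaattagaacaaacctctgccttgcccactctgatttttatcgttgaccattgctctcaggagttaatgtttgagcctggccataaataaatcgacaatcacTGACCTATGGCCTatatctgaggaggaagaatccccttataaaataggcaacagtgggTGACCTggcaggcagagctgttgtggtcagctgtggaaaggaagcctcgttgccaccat

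A RefSeq promoter window was at hand for 31 of the 34 genes, with 33 windows in all. AGGTCA, searched on both strands, was in 8 of these 33 windows (24.2%), from 7 genes (Acadm, Acadvl, Acot3, Acot4, Acot12, Cpt1a and Fabp1), and in 16.3% of 32851 windows of the genome. The exact repeat, AGGTCA followed by any base and AGGTCA again, was in 0 of the 33 windows and in 0.0396% of all windows. The looser repeat, with AGGNCA in both places, was in 1 of the 33, that of Fabp1, whose match on the minus strand reads TGACCTATGGCCT from base -67, and in 0.381% of all windows. That match overlaps 1 of the AGGTCA matches of the same window, and any exact repeat would be counted in the looser form too. In the Acot4 window the match begins at base -13 and in the Acot3 window at base 19, while the Acot1 and Acot2 windows held none. A match describes these letters and does not show whether PPAR-alpha binds there, which was not tested.

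In Mdr2-KO against wild type, 13 of the 34 genes fell, 1 rose and 20 did not pass the test at an adjusted p of 0.05 (limma, Benjamini-Hochberg over all genes). That is 41.2% of the list past the test and 38.2% lower, beside 21.0% of all genes past it, 12.1% lower and 8.89% higher. In Mdr2-KO/IL6-KO against wild type, 7 fell, 0 rose and 27 did not pass, or 20.6% of the list, beside 12.3% of all genes past the test, 5.33% lower and 6.96% higher. In Mdr2-KO/IL6-KO against Mdr2-KO, 1 rose, 1 fell and 32 did not pass, so that 5.88% of the list passed beside 8.76% of all genes (5.04% higher and 3.72% lower). Without Mdr2-KO/IL6-KO array 1, 11 genes passed against wild type in that genotype. The count between the knockouts was 1 when any of 7 arrays was left out, namely Mdr2-KO 1, 3, 4 and 5 and Mdr2-KO/IL6-KO 4, 5 and 6. Against wild type, the median difference of the 34 was -0.25 in Mdr2-KO/IL6-KO and -0.33 in Mdr2-KO, and between the knockouts it was 0.05. Over all genes these medians were -0.02, -0.07 and 0.06. The small median between the knockouts had no stable sign, at -0.04 without Mdr2-KO/IL6-KO array 1 and -0.01 without Mdr2-KO array 3. The comparisons of the knockouts with wild type share the 3 wild-type arrays. The arrays did not overlap with wild type for 8 lower and 0 higher genes in Mdr2-KO/IL6-KO, where 15.1% of all genes did not overlap (6.56% lower, 8.57% higher). In Mdr2-KO this held for 18 lower genes and 1 higher, beside 23.5% of all genes (13.2% lower, 10.3% higher). Between the knockouts it held for 1 lower gene and 1 higher, beside 7.34% of all genes (2.94% lower, 4.4% higher). Of the falls that passed, 5 of 7 in Mdr2-KO/IL6-KO and 6 of 13 in Mdr2-KO reached at least 1.5-fold. Over all genes, 288 of 1062 falls and 343 of 2417 falls did so. In either direction, 3.75% and 4.01% of all genes passed at that size. Between the knockouts 0 of the 34 genes passed at that size in either direction, beside 0.752% of all genes.

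**Figure D1:**
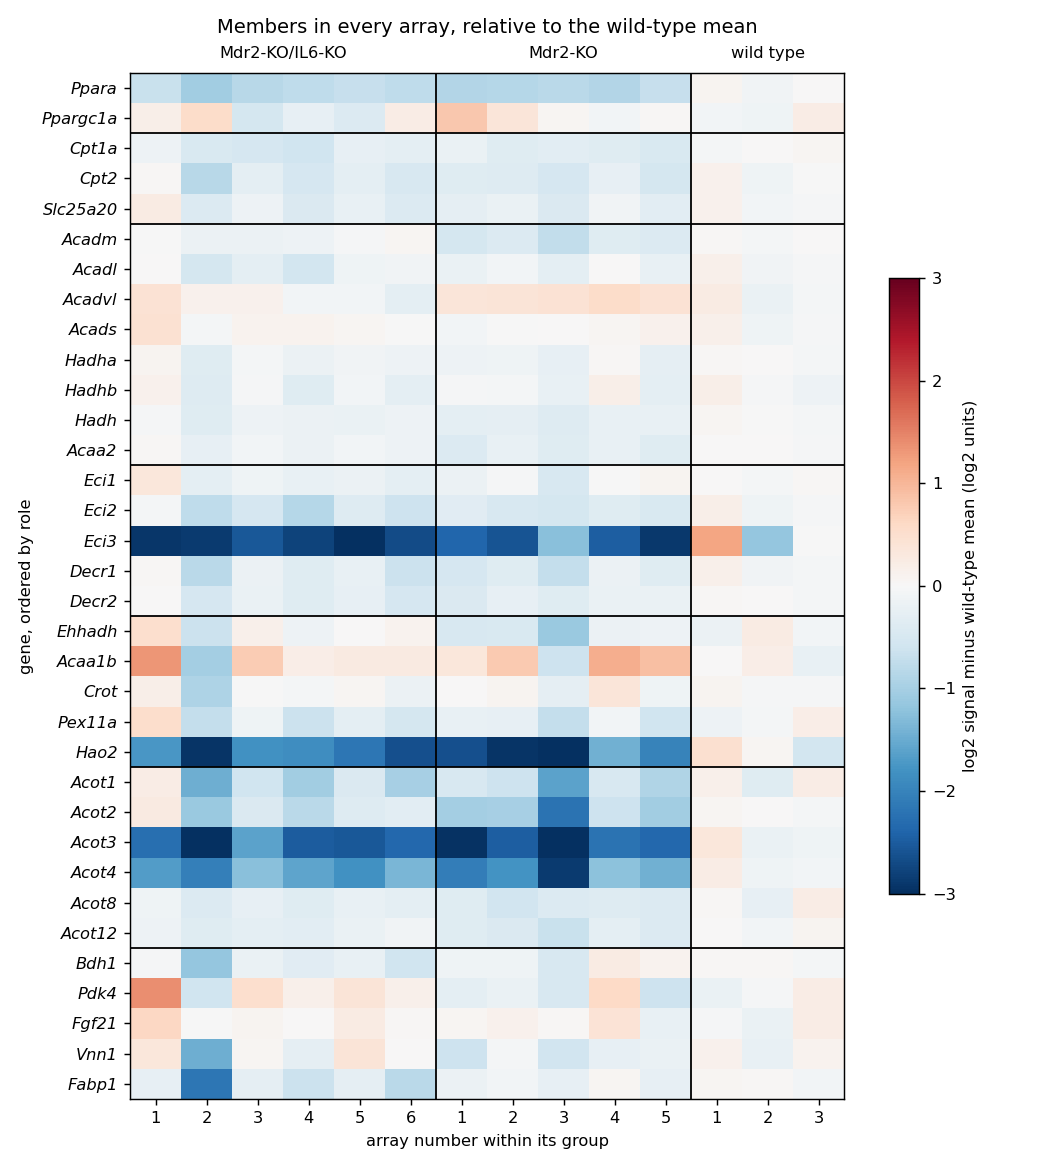
Log2 value of each of the 34 genes (rows, grouped by role) on each array (columns, Mdr2-KO/IL6-KO, Mdr2-KO, wild type) minus the gene's wild-type mean, with colours ending at 3 units either way. Acot3, Acot4, Acot12, Cpt1a, Eci3, Hao2 and Ppara are lower on every knockout array than on every wild-type array, whereas most other genes lie close to the wild-type mean.

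**Figure D2:**
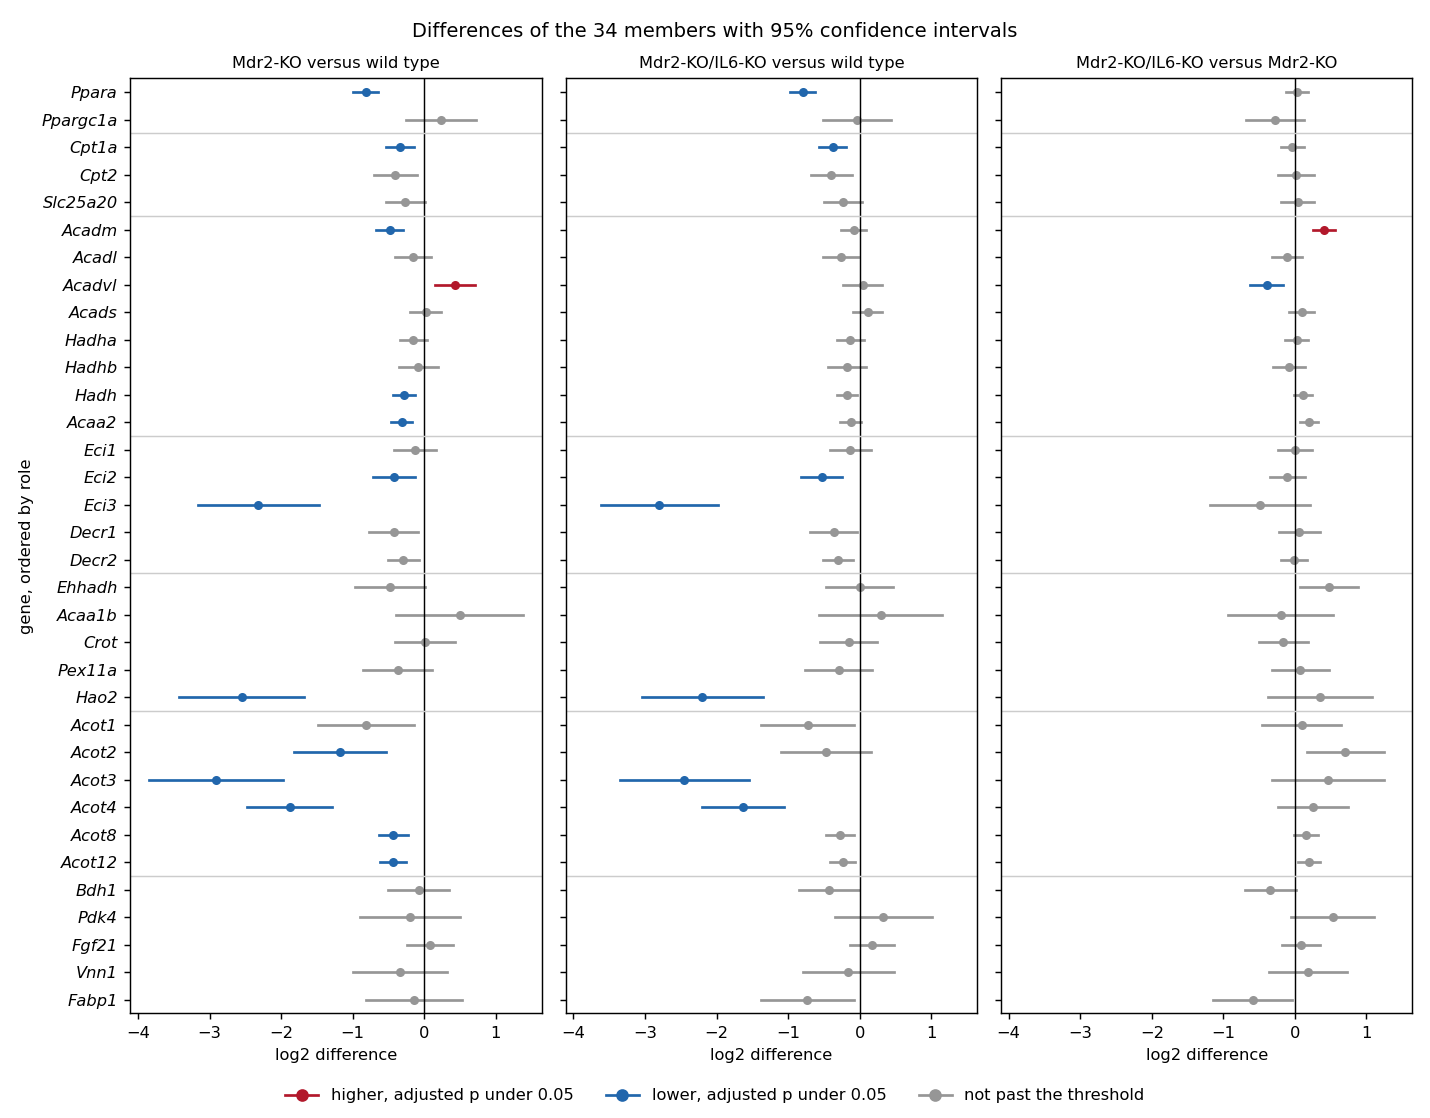
Log2 difference (horizontal axis) with its 95% interval for each of the 34 genes in the 3 comparisons, with coloured points for genes past an adjusted p of 0.05. There are 14 such genes in the left panel, 7 in the middle panel and 2 in the right panel, and their intervals do not reach 0.

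The receptor itself fell in both knockouts. Ppara, which encodes PPAR-alpha, had a lowest value of 9.75, a median of 10.03 and a highest value of 10.12 in Mdr2-KO/IL6-KO. It measured 9.92, 9.93, 9.99, 9.90 and 10.11 in Mdr2-KO, against 10.88, 10.69 and 10.80 in wild type. No knockout array reached the lowest wild-type array. The difference was -0.79 ± 0.08 (SE) in Mdr2-KO/IL6-KO, a 1.73-fold lower level (adjusted p = 2.98e-05), and -0.82 ± 0.08 in Mdr2-KO, a 1.77-fold lower level (adjusted p = 2.5e-05). Between the knockouts Ppara differed by 0.03 (95% interval -0.12 to 0.18, adjusted p = 0.815). Of 13 clock genes, whose products set daily rhythms of liver transcription, 1 rose and 3 fell in Mdr2-KO/IL6-KO against wild type. In Mdr2-KO 2 rose and 4 fell. That is 30.8% and 46.2% of the clock genes past the test, beside 12.3% and 21.0% of all genes. The mean level of the clock genes was 7.45 to 8.03 in Mdr2-KO/IL6-KO, 7.34 to 8.01 in Mdr2-KO and 7.99 to 8.13 in wild type. Of 9 genes that respond to feeding, 1 rose and 1 fell in each knockout against wild type, or 22.2% of them. The mean level of these 9 was 10.07 to 10.67 in Mdr2-KO/IL6-KO, 10.13 to 10.54 in Mdr2-KO and 9.99 to 10.47 in wild type. The time of harvest and the feeding state are not in the labels, and their part in the Ppara values was not tested.

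Ppargc1a encodes PGC-1alpha, the coactivator that PPAR-alpha shares with other receptors. It averaged 8.43 ± 0.42 in Mdr2-KO/IL6-KO, 8.71 ± 0.36 in Mdr2-KO and 8.47 ± 0.20 in wild type, and passed in no comparison (adjusted p = 0.945 and 0.466 against wild type). Its probes disagree. A second, dimmer probe averaged 8.12 in Mdr2-KO and 7.26 in wild type, a difference of 0.86 ± 0.26 (SE) with an adjusted p of 0.0363 over all probes, while in Mdr2-KO/IL6-KO it differed from wild type by 0.29 (adjusted p = 0.577).

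In the carnitine shuttle, 1 of 3 genes fell in each knockout against wild type. This and the counts by role below stand beside 5.33% of all genes lower and 6.96% higher in Mdr2-KO/IL6-KO. In Mdr2-KO 12.1% of all genes were lower and 8.89% higher. Cpt1a, which makes acylcarnitines at the outer mitochondrial membrane and sets the rate of entry, had a lowest value of 10.75, a median of 10.97 and a highest value of 11.19 in Mdr2-KO/IL6-KO. It measured 11.13, 10.97, 11.02, 10.98 and 10.88 in Mdr2-KO, against 11.28, 11.34 and 11.39 in wild type. The groups did not overlap, and the difference was -0.37 ± 0.09 (SE) in Mdr2-KO/IL6-KO (adjusted p = 0.0121) and -0.34 ± 0.09 in Mdr2-KO (adjusted p = 0.0181). Neither call passed with wild-type array 3 left out (adjusted p = 0.0549 and 0.0746). Over all genes, calls were fewer without it too, at 899 higher and 736 lower in Mdr2-KO/IL6-KO and 988 and 1152 in Mdr2-KO. Cpt2, which returns acyl groups to CoA inside the mitochondrion, averaged 9.95 ± 0.29 in Mdr2-KO/IL6-KO, 9.94 ± 0.11 in Mdr2-KO and 10.34 ± 0.12 in wild type (adjusted p = 0.0744 and 0.0518). Slc25a20, the carrier between them, differed by -0.23 and -0.27 (adjusted p = 0.278 and 0.144). When Mdr2-KO/IL6-KO array 1 was left out, Cpt2 passed with an adjusted p of 0.0134 in Mdr2-KO/IL6-KO and 0.0222 in Mdr2-KO, and Slc25a20 with 0.0318 and 0.049. For Mdr2-KO, Cpt2 also passed when array 2 of Mdr2-KO/IL6-KO was left out (0.0214). Here and below, leaving out an array of the group not compared leaves the difference unchanged and alters only the spread shared by the groups.

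Of the 8 dehydrogenase, hydratase and thiolase genes of the mitochondrial beta-oxidation cycle, 3 fell and 1 rose in Mdr2-KO against wild type, and 0 passed in Mdr2-KO/IL6-KO, where the lowest adjusted p was 0.111. Between the knockouts 1 of the 8 rose and 1 fell. Acadm, the medium-chain acyl-CoA dehydrogenase, had a lowest value of 11.14, a median of 11.24 and a highest value of 11.38 in Mdr2-KO/IL6-KO. It measured 10.81, 10.93, 10.59, 10.97 and 10.93 in Mdr2-KO and 11.36, 11.27 and 11.34 in wild type. Every Mdr2-KO array was below every other array, while the Mdr2-KO/IL6-KO and wild-type arrays overlapped. The difference was -0.48 ± 0.09 (SE) in Mdr2-KO against wild type (adjusted p = 0.00174). It was 0.40 ± 0.07 in Mdr2-KO/IL6-KO against Mdr2-KO, a 1.32-fold higher level (adjusted p = 0.00472), and -0.08 (95% interval -0.26 to 0.10) in Mdr2-KO/IL6-KO against wild type. These comparisons share arrays and are not independent.

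Acadvl, the very-long-chain acyl-CoA dehydrogenase, went the other way. It had a lowest value of 8.70, a median of 9.01 and a highest value of 9.42 in Mdr2-KO/IL6-KO, and measured 9.35, 9.38, 9.41, 9.54 and 9.42 in Mdr2-KO and 9.23, 8.80 and 8.92 in wild type. It was 0.43 ± 0.13 (SE) higher in Mdr2-KO than in wild type, with no overlap (adjusted p = 0.03), and it fell by 0.39 ± 0.11 in Mdr2-KO/IL6-KO against Mdr2-KO, with overlap (adjusted p = 0.0382). Neither call was firm. Against wild type the adjusted p was 0.101, 0.11 and 0.0623 without wild-type array 2, wild-type array 3 or Mdr2-KO array 4. Between the knockouts, leaving out any of 8 arrays (numbers 1, 3, 4 and 5 of Mdr2-KO and numbers 2, 4, 5 and 6 of Mdr2-KO/IL6-KO) gave an adjusted p from 0.0508 to 0.0882.

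Hadh, the short-chain hydroxyacyl-CoA dehydrogenase, was 11.80, 11.82, 11.72, 11.86 and 11.86 in Mdr2-KO, against 12.16, 12.09 and 12.04 in wild type, with no overlap and a difference of -0.28 ± 0.07 (SE, adjusted p = 0.0113). Acaa2, the mitochondrial thiolase of the last step, was 11.85, 12.03, 11.88, 12.04 and 11.89 in Mdr2-KO, against 12.26, 12.28 and 12.22 in wild type, a difference of -0.32 ± 0.07 (adjusted p = 0.00653). Both fell on every Mdr2-KO array relative to the lowest wild-type array. In Mdr2-KO/IL6-KO they differed from wild type by -0.18 (adjusted p = 0.111) and -0.12 (adjusted p = 0.302), and Acaa2 differed between the knockouts by 0.20 with an adjusted p of 0.0502 (0.0413 to 0.048 without wild-type array 3, Mdr2-KO array 2 or Mdr2-KO/IL6-KO array 2). Acadl, Acads, Hadha and Hadhb, the long-chain and short-chain dehydrogenases and the subunits of the trifunctional protein, passed in no comparison. Hadhb was read by a second probe with nearly equal differences, -0.18 in Mdr2-KO/IL6-KO and -0.07 in Mdr2-KO against wild type.

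Of the 5 auxiliary genes, which handle double bonds in unsaturated chains, 2 fell in each knockout against wild type. Eci3, an enoyl-CoA isomerase, had a lowest value of 4.48, a median of 4.72 and a highest value of 5.002 in Mdr2-KO/IL6-KO. It measured 5.15, 4.95, 6.27, 5.05 and 4.64 in Mdr2-KO, against 8.72, 6.36 and 7.52 in wild type. Wild-type arrays spread over more than 2 units, and Mdr2-KO array 3 lay just under wild-type array 2. The fitted difference was -2.80 ± 0.38 (SE) in Mdr2-KO/IL6-KO (adjusted p = 0.000276) and -2.32 ± 0.40 in Mdr2-KO (adjusted p = 0.00125), and both knockout means are below the background level, so the size of the fall is not exact. The mean level of 8 female-biased liver genes, which are sensitive to the sex-specific growth hormone pattern, was 6.01 to 6.60 in Mdr2-KO/IL6-KO, 6.04 to 6.99 in Mdr2-KO and 8.40 to 10.46 in wild type. In that list too, Mdr2-KO array 3 was the highest and wild-type array 2 the lowest of their groups. Of the 8, 7 fell in each knockout, beside 5.33% of all genes in Mdr2-KO/IL6-KO and 12.1% in Mdr2-KO. For Hao2, Acot3 and Acot4, given below, Mdr2-KO array 3 was instead the lowest of its group (3.93, 5.26 and 7.56). Wild-type array 2 was the lowest of its group for Acot3 and Acot4 (9.61 and 10.31), not for Hao2. The part of the female-biased genes in the values of Eci3, Hao2, Acot3 and Acot4 was not tested.

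Eci2, the peroxisomal and mitochondrial isomerase whose gene lies next to Eci3, averaged 9.04 ± 0.28 in Mdr2-KO/IL6-KO, 9.14 ± 0.08 in Mdr2-KO and 9.57 ± 0.16 in wild type. Its difference was -0.53 ± 0.13 (SE, adjusted p = 0.0162) in Mdr2-KO/IL6-KO and -0.43 ± 0.14 (adjusted p = 0.039) in Mdr2-KO. Without wild-type array 1 the adjusted p was 0.0934 and 0.149. For Mdr2-KO it was also above the threshold without wild-type array 3 (0.0922), without any single Mdr2-KO array (0.0519 to 0.0685) and with arrays centred on their medians (0.0534). Decr1 and Decr2, the mitochondrial and peroxisomal dienoyl-CoA reductases, and Eci1 did not pass, with Decr2 at -0.30 (adjusted p = 0.0638) in Mdr2-KO/IL6-KO and -0.29 (adjusted p = 0.0576) in Mdr2-KO. Leaving out Mdr2-KO/IL6-KO array 1 gave Decr2 an adjusted p of 0.013 in Mdr2-KO/IL6-KO and 0.0279 in Mdr2-KO, and Decr1 0.049 in Mdr2-KO. Leaving out array 2 of that genotype gave Decr1 0.0438 and Decr2 0.0493 in Mdr2-KO.

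Among the 5 peroxisomal genes, Hao2 alone passed, in both knockouts against wild type. Hao2, a peroxisomal hydroxy-acid oxidase, had a lowest value of 4.71, a median of 5.63 and a highest value of 5.90 in Mdr2-KO/IL6-KO. It measured 5.01, 4.70, 3.93, 6.21 and 5.64 in Mdr2-KO, against 8.13, 7.72 and 7.10 in wild type. The groups did not overlap, with differences of -2.20 ± 0.40 (SE, adjusted p = 0.00201) and -2.55 ± 0.41 (adjusted p = 0.000803), whose sizes are not exact because both knockout means are below the background level. Ehhadh, the peroxisomal bifunctional enzyme and a well known PPAR-alpha target, averaged 10.90 ± 0.38 in Mdr2-KO/IL6-KO, 10.42 ± 0.39 in Mdr2-KO and 10.90 ± 0.22 in wild type. Its difference between the knockouts was 0.48 (95% interval 0.08 to 0.88, adjusted p = 0.115), and 0.61 without Mdr2-KO/IL6-KO array 2 (adjusted p = 0.045). Acaa1b, a peroxisomal thiolase, Crot, the peroxisomal carnitine octanoyltransferase, and Pex11a, a factor of peroxisome division, passed nowhere. Crot is the direct neighbour of Abcb4 on chromosome 5, and it differed from wild type by -0.15 in Mdr2-KO/IL6-KO (95% interval -0.55 to 0.25) and by 0.01 in Mdr2-KO (-0.40 to 0.43). Hadha and Hadhb, which lie 3 and 4 genes from Il6 on the same chromosome, differed by -0.13 (-0.31 to 0.06) and -0.17 (-0.44 to 0.09) in Mdr2-KO/IL6-KO.

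Of the 6 thioesterases, 2 fell in Mdr2-KO/IL6-KO and 5 in Mdr2-KO against wild type. In Mdr2-KO all 6 lay below wild type with no overlap, as 13.2% of all genes did. Acot3, a peroxisomal thioesterase for long chains, had a lowest value of 6.37, a median of 7.40 and a highest value of 8.20 in Mdr2-KO/IL6-KO. It measured 6.85, 7.33, 5.26, 7.60 and 7.46 in Mdr2-KO, against 10.15, 9.61 and 9.68 in wild type. This was the widest gap among genes whose means were above background, 5.46-fold in Mdr2-KO/IL6-KO (difference -2.45 ± 0.43 (SE), adjusted p = 0.0016) and 7.52-fold in Mdr2-KO (-2.91 ± 0.44, adjusted p = 0.000501).

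Acot4, a peroxisomal thioesterase for dicarboxylic acids, had a lowest value of 8.40, a median of 8.81 and a highest value of 9.20 in Mdr2-KO/IL6-KO. It measured 8.38, 8.65, 7.56, 9.23 and 9.02 in Mdr2-KO, against 10.66, 10.31 and 10.37 in wild type. All 11 knockout arrays lay more than 1 unit below the lowest wild-type array, at 3.08-fold lower in Mdr2-KO/IL6-KO (difference -1.62 ± 0.27 (SE), adjusted p = 0.00111) and 3.68-fold lower in Mdr2-KO (-1.88 ± 0.28, adjusted p = 0.000431). Between the knockouts Acot3 differed by 0.46 (adjusted p = 0.408) and Acot4 by 0.26 (adjusted p = 0.471).

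Acot2, the mitochondrial long-chain thioesterase of the same row, passed in Mdr2-KO alone. It had a lowest value of 8.45, a median of 9.15 and a highest value of 9.85 in Mdr2-KO/IL6-KO, and measured 8.55, 8.58, 7.35, 8.96 and 8.53 in Mdr2-KO and 9.63, 9.57 and 9.50 in wild type. It fell by 1.17 ± 0.30 (SE) in Mdr2-KO (adjusted p = 0.0144), while Mdr2-KO/IL6-KO overlapped with wild type and differed by -0.47 (95% interval -1.09 to 0.16, adjusted p = 0.364). The difference between the knockouts, 0.71 ± 0.25, did not pass (adjusted p = 0.0846). Acot1, its cytosolic near copy, averaged 5.64 ± 0.59, 5.55 ± 0.48 and 6.36 ± 0.31 in Mdr2-KO/IL6-KO, Mdr2-KO and wild type, close to background, and did not pass (adjusted p = 0.146 and 0.0753 against wild type), but did without Mdr2-KO/IL6-KO array 1 (0.0348 and 0.0384). Genes of this row are similar in sequence, and probes of Acot1 and Acot2, of Acot3, Acot4 and Acot5, and of Eci2 and Eci3 may share signal. The next genes of the row, Acot5 and Acot6, were looked at after the values of the others were seen. Acot5 was below background in all groups, and Acot6 differed by -0.18 in Mdr2-KO/IL6-KO (adjusted p = 0.271) and -0.43 in Mdr2-KO (adjusted p = 0.00958).

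Acot8, a peroxisomal thioesterase, averaged 7.33 ± 0.10 in Mdr2-KO/IL6-KO, 7.17 ± 0.08 in Mdr2-KO and 7.61 ± 0.23 in wild type, and Acot12, which splits acetyl-CoA in the cytosol, averaged 10.84 ± 0.10, 10.64 ± 0.15 and 11.07 ± 0.08. Both fell in Mdr2-KO, Acot8 by 0.43 (adjusted p = 0.00557) and Acot12 by 0.44 (adjusted p = 0.0031). In Mdr2-KO/IL6-KO they differed from wild type by -0.27 (adjusted p = 0.0643) and -0.24 (adjusted p = 0.0814). Acot8 passed there without wild-type array 2 (adjusted p = 0.00898) and Acot12 without Mdr2-KO array 3 (adjusted p = 0.0407). The Acot12 difference stayed at -0.24, since that array belongs to neither group compared.

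**Figure D3:**
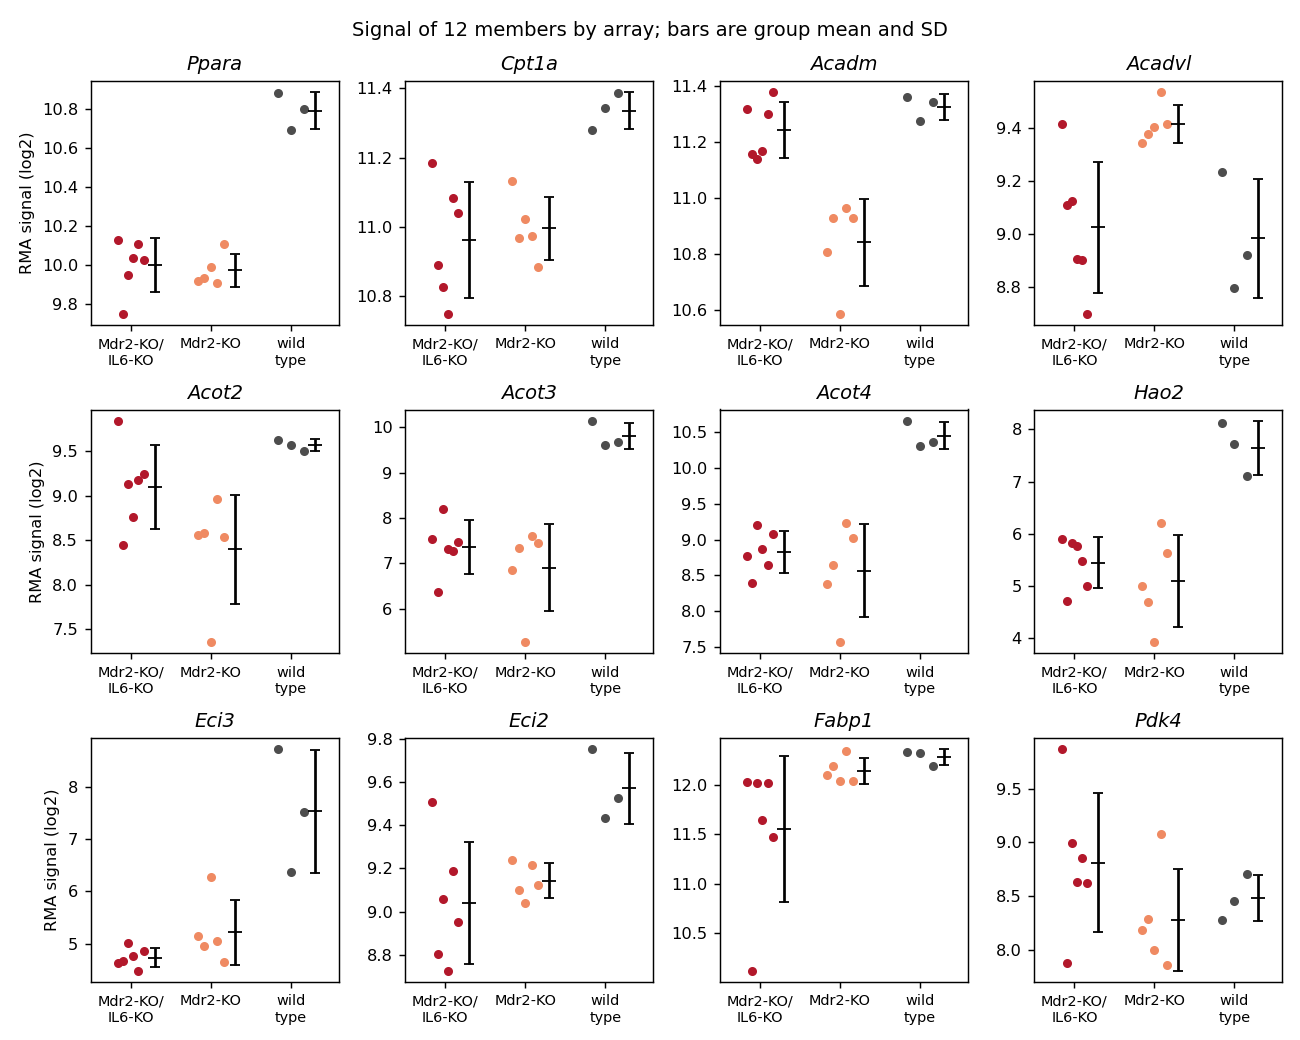
Log2 value per array (points) with group mean and SD for 12 of the 34 genes, with Mdr2-KO/IL6-KO, Mdr2-KO and wild type from left to right. Ppara, Cpt1a, Acot3, Acot4, Hao2 and Eci3 separate both knockouts from wild type, and Acadm separates Mdr2-KO from the other arrays.

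Of the 5 genes for ketone bodies, hormone output and other targets, 0 passed in any comparison. Bdh1, which interconverts the ketone bodies, averaged 9.43 ± 0.40 in Mdr2-KO/IL6-KO, 9.78 ± 0.28 in Mdr2-KO and 9.86 ± 0.06 in wild type. Pdk4, the kinase that closes pyruvate dehydrogenase in fasting, averaged 8.81 ± 0.65, 8.28 ± 0.47 and 8.48 ± 0.22, and Fgf21, the fasting hormone of the liver, averaged 5.96 ± 0.24, 5.87 ± 0.22 and 5.79 ± 0.21, near background. Vnn1, a pantetheinase induced by PPAR-alpha, averaged 9.82 ± 0.69, 9.63 ± 0.25 and 9.98 ± 0.20. The 95% interval of the Pdk4 difference in Mdr2-KO against wild type was -0.90 to 0.50, wide enough to hold a fall as large as that of Ppara. Fabp1, the liver fatty acid binding protein, had a lowest value of 10.12, a median of 11.83 and a highest value of 12.03 in Mdr2-KO/IL6-KO, and measured 12.10, 12.19, 12.04, 12.34 and 12.04 in Mdr2-KO and 12.33, 12.32 and 12.19 in wild type. Its Mdr2-KO/IL6-KO arrays did not overlap with wild type, but the difference of -0.73 did not pass (adjusted p = 0.14). It rests in part on array 2, at 10.12, with the other 5 at 11.47 to 12.03. Without that array the difference of Fabp1 was -0.44 and passed (adjusted p = 0.0343).

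Within a group, some arrays stood above or below the others over most of the 34 genes. The median over the 34 of a gene's value minus its own group mean was 0.37 on Mdr2-KO/IL6-KO array 1, which was the highest of its group for 27 of the 34 genes, and -0.24 on Mdr2-KO/IL6-KO array 2, the lowest for 26. In Mdr2-KO it was 0.16 on array 4, the highest for 24 genes, and -0.18 on array 3, the lowest for 19. In wild type it stayed between -0.07 and 0.06.

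**Figure D4:**
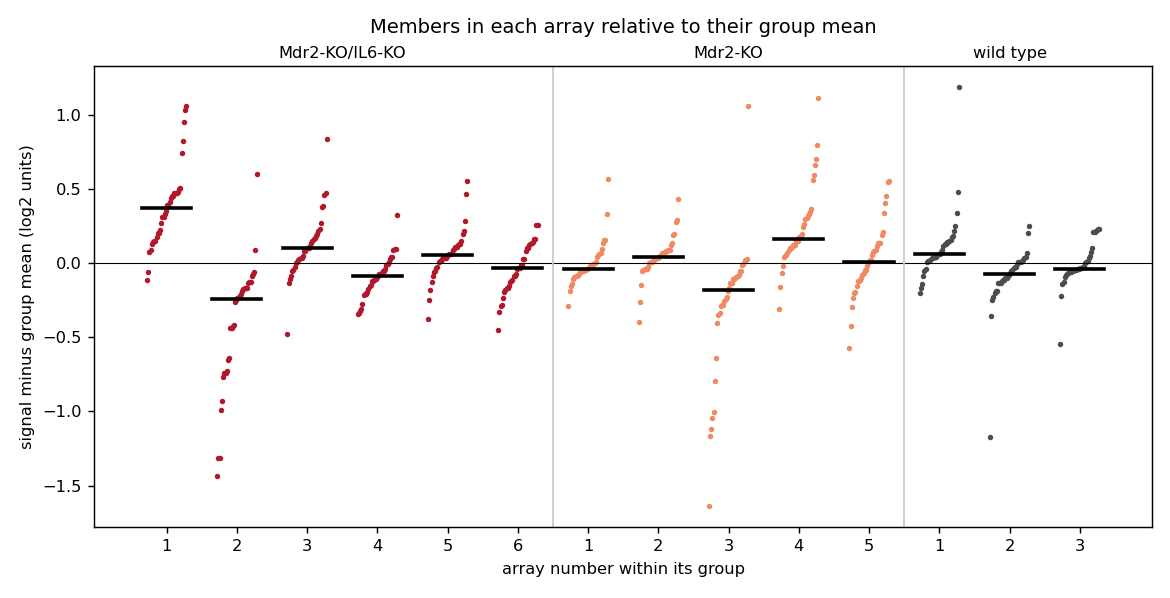
Value of each of the 34 genes minus its own group mean (log2, vertical axis) on each of the 14 arrays, with the median per array. Mdr2-KO/IL6-KO arrays 1 and 2 lie farthest from their group, at medians of 0.37 and -0.24.

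Outside the 34, a list of 100 other genes of PPAR-alpha signalling, fatty acid oxidation and ketone bodies was read, of which 88 were measured. Against wild type, 5 rose and 16 fell in Mdr2-KO/IL6-KO (median -0.09), and likewise 5 rose and 16 fell in Mdr2-KO (median -0.07); between the knockouts 6 rose and 5 fell (median 0.01). The share past the test was 23.9% in each knockout, beside 12.3% of all genes in Mdr2-KO/IL6-KO and 21.0% in Mdr2-KO, and 12.5% between the knockouts, beside 8.76%. In Mdr2-KO the share in either direction is thus close to that of all genes, and both medians are -0.07. By direction, 18.2% of the 88 fell in each knockout, beside 5.33% of all genes in Mdr2-KO/IL6-KO and 12.1% in Mdr2-KO. The 5 rises in each stand beside 6.96% and 8.89% of all genes. These counts moved with single arrays left out. In all, 9 and 13 genes passed in Mdr2-KO/IL6-KO without wild-type array 1 or 3, and 13 in Mdr2-KO without wild-type array 3. Calls over all genes were fewer too. In Mdr2-KO/IL6-KO 1388 rose and 1062 fell with all arrays, 970 and 724 without wild-type array 1, and 899 and 736 without array 3. In Mdr2-KO 1772 rose and 2417 fell with all arrays, and 988 and 1152 without wild-type array 3. Between the knockouts 5 to 7 passed when array 1, 2 or 3 of Mdr2-KO, or array 2 or 6 of Mdr2-KO/IL6-KO, was left out. Cyp4a31, a fatty acid omega-hydroxylase with close copies whose probes may share signal, had the largest fall in Mdr2-KO, at -1.45 (adjusted p = 0.00883), and stood at -0.93 in Mdr2-KO/IL6-KO (adjusted p = 0.0814). Pdk1, a pyruvate dehydrogenase kinase, differed by -1.04 in Mdr2-KO/IL6-KO (adjusted p = 3.5e-05) and by -0.74 in Mdr2-KO (adjusted p = 0.000559). Hacl1, a lyase of peroxisomal alpha-oxidation, differed by -0.92 (adjusted p = 0.000794) and -0.68 (adjusted p = 0.00581), and Abcd2, a peroxisomal importer of very-long-chain acyl-CoA, by -0.86 (adjusted p = 0.00456) and -1.03 (adjusted p = 0.00153). Etfa and Etfb, the subunits of the flavoprotein that takes electrons from the acyl-CoA dehydrogenases, were chosen after their values were seen and fell by 0.38 and 0.29 in Mdr2-KO/IL6-KO and by 0.46 and 0.36 in Mdr2-KO. The largest rise was that of Plin4, a lipid droplet protein, at 1.06 in Mdr2-KO/IL6-KO (adjusted p = 0.0388), but without any of wild-type arrays 1 to 3 or Mdr2-KO/IL6-KO arrays 2, 3 and 6 its adjusted p was 0.0527 to 0.158. Acot9, a mitochondrial thioesterase, was 0.68 higher in the same genotype (adjusted p = 0.000481) and Acox2, the branched-chain acyl-CoA oxidase of bile acid synthesis, 0.48 higher (adjusted p = 0.00286). In Mdr2-KO these stood at 0.29 (adjusted p = 0.0571) and 0.26 (adjusted p = 0.0624).

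Other genes of the list also differed between the knockouts, and the comparisons given for them share arrays. Acadsb, the short branched-chain acyl-CoA dehydrogenase, averaged 9.14 in Mdr2-KO/IL6-KO, 9.57 in Mdr2-KO and 9.13 in wild type. It was 0.44 higher in Mdr2-KO than in wild type (adjusted p = 0.00175) and -0.43 in Mdr2-KO/IL6-KO against Mdr2-KO (adjusted p = 0.00196), with every Mdr2-KO array above every other array. Hsd17b10, a mitochondrial hydroxyacyl-CoA dehydrogenase chosen after its values were seen, averaged 10.74, 10.42 and 10.83 in the same order of genotypes, 0.32 higher in Mdr2-KO/IL6-KO than in Mdr2-KO (adjusted p = 0.00643). Acacb, whose product malonyl-CoA inhibits the carnitine shuttle, averaged 7.55, 8.31 and 8.78, and was -0.76 in Mdr2-KO/IL6-KO against Mdr2-KO (adjusted p = 0.0282) and -1.23 against wild type (adjusted p = 0.00247). Its difference between the knockouts had an adjusted p of 0.0531 to 0.0681 when array 1 or 3 of Mdr2-KO, or array 2 or 6 of Mdr2-KO/IL6-KO, was left out.

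Some markers of other liver cells rose in the knockouts against wild type. Over all genes, 6.96% rose in Mdr2-KO/IL6-KO and 8.89% in Mdr2-KO. Of 7 bile duct markers, 5 rose in Mdr2-KO/IL6-KO and 3 in Mdr2-KO against wild type, with a mean level of 7.12 to 7.97, 7.01 to 7.86 and 6.27 to 6.69 in Mdr2-KO/IL6-KO, Mdr2-KO and wild type. Of 10 macrophage markers, 5 and 4 rose, with a mean level of 8.89 to 9.24, 8.53 to 9.12 and 8.27 to 8.54. The difference was below 0 for 3 of these markers in Mdr2-KO/IL6-KO and 4 in Mdr2-KO, and its median was 0.39 and 0.11. Of 10 stellate cell and fibroblast markers, 5 rose and 1 fell in Mdr2-KO/IL6-KO and 4 rose and 1 fell in Mdr2-KO. Their mean level was 7.71 to 8.41, 7.56 to 8.39 and 7.40 to 7.58, and 3 had a difference below 0 in each knockout. The part of these cell types in the falls of the 34 genes was not tested.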

How the data were processed

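Liver RNA was measured on 14 Affymetrix mouse gene arrays. The deposited table holds log2 values that the authors computed by RMA in Partek, per the submitters' processing notes. Versions, probe build, filters and pooling were not given in the sources used here. RMA subtracts background, quantile-normalises the arrays and averages probes of a set, which compresses differences of dim genes. Of 35557 probes, 21789 name a single gene, and the probe of highest mean stood for each of 19938 genes. A model of 3 group means over all arrays was fitted in limma 3.58.1 (R 4.3.3) with eBayes, 2-sided, and p-values adjusted by Benjamini-Hochberg over all genes, at 0.05. The procedure was tested on simulated data. Python 3.11.15 and matplotlib 3.10.9 handled tables and plots. The genes, lists and tests were chosen with earlier results of these data known, and the background level (5.49, with 29.2% of genes below it) after seeing them. Up to 4 genes per direction with the largest change among those past the threshold could be named from the list of other pathway genes. Not all of these were named. Among those left out, Mgll differed from wild type by -0.98 in Mdr2-KO/IL6-KO and -0.76 in Mdr2-KO. Cyp4a10 differed by -1.08 and Scp2 by 0.59 in Mdr2-KO. Each of these calls was lost in some of the alternatives. Alternatives were other scaling, filtering, probe choice, moderation, weights and arrays left out. The labels give no batch. Precision rests on 3, 5 and 6 arrays and on signal over background.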

Additional observations from a re-analysis of the deposited data

Results flagged for a closer look

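Of 68 groups of arrays given a check for a single distant array, 7 held an array whose gap to its nearest neighbour was large for the range of its group, and chance picks out about 1 in 20 groups. In Mdr2-KO/IL6-KO, array 1 stood above the other 5 for Acads (10.15) and Eci1 (10.05). Array 2 stood below the other 5 for Crot (10.66), Vnn1 (8.51) and Fabp1 (10.12). In Mdr2-KO, array 3 was far below the other 4 for Acot2 (7.35) and array 2 below the other 4 for Acot8 (7.03). Acot2 and Acot8 passed the test in Mdr2-KO against wild type with any single array left out, and the other 5 genes passed in no comparison with all arrays in the model. Without array 2, Fabp1 passed in Mdr2-KO/IL6-KO against wild type.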

How the results depend on the processing

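Of 14 calls among the 34 genes in Mdr2-KO against wild type, 11 were kept under every alternative run except the fold filter, and of 7 in Mdr2-KO/IL6-KO, 5 were; the exceptions, Cpt1a, Eci2 and, in Mdr2-KO, Acadvl, are given with their values above. Between the knockouts Acadm was kept and Acadvl was lost in 10 of the 23 alternatives. Eci3 was left out by the filter on dim genes, which kept 13292 genes. Requiring at least 1.5-fold left 6 genes in Mdr2-KO against wild type, 0 genes between the knockouts and, among the other pathway genes 9 in Mdr2-KO/IL6-KO and 7 in Mdr2-KO against wild type, with 2 between the knockouts. Array quality weights gave 13 genes in Mdr2-KO/IL6-KO against wild type in place of 7. Over all genes the weights gave 1714 higher and 1405 lower there, in place of 1388 and 1062. With each array left out in turn the 34 gave 6 to 11 calls in Mdr2-KO/IL6-KO and 11 to 19 in Mdr2-KO against wild type, with 1 to 3 between the knockouts. They gave for the other pathway genes 9 to 24, 13 to 24 and 5 to 12 in the same order. With Mdr2-KO array 3 and wild-type array 2 both left out, the counts between the knockouts were 1 and 6. Over all genes 501 rose and 469 fell there, in place of 1005 and 741. With Mdr2-KO/IL6-KO array 2 and Mdr2-KO array 3 both left out, a choice made after seeing the data, the counts were 1 and 3. Over all genes 343 rose and 344 fell there. The median between the knockouts, 0.05, ranged from -0.04 to 0.11 with single arrays left out, and was -0.0384 without Mdr2-KO/IL6-KO array 1 and -0.0063 without Mdr2-KO array 3, alone or together with wild-type array 2. Centring arrays on their medians changed the split over all genes from 1772 higher and 2417 lower to 1880 and 1920 in Mdr2-KO against wild type, and from 1005 and 741 to 692 and 763 between the knockouts. The cause of these changes was not tested. No paired analysis was possible because only the wild-type replicate numbers come from the labels. Signal near background limits Eci3, Hao2, Acot1 and Fgf21.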
